A study of Mus musculus with 6 samples.

Results

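The genes described here are 9 lipocalins and lipid-binding carriers among the 24346 gene symbols measured by RNA sequencing in a mouse colorectal tumor line and in 1 of its mutants. They are the secreted lipocalins Lcn2, Apod and Ptgds, the Lcn2 receptor Slc22a17, the fatty acid-binding proteins Fabp3, Fabp4 and Fabp5, and the retinoic acid-binding proteins Crabp1 and Crabp2. The set was chosen by gene symbol with the measured values of this comparison already in view, since Lcn2 and Apod were known to differ widely between the cell lines. The differences between the lines in these genes are therefore given as a description, with no p-value, and the calls counted further on support nothing beyond it. Of the 9 genes, 5 had a mean of at least 1 FPKM over the samples and entered the fit across 10597 genes, and 4 lay below this level.

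The parental cells were CT26.mMR1, the CT26 colorectal tumor line transduced by retrovirus with mouse MR1, the molecule that presents small metabolites to MAIT cells. M8 was an ENU mutant of these cells and carried the same MR1 transgene, and both lines are labelled as colon and as overexpressing MR1. The sample titles add cl9 to the name of both lines. ENU is a chemical mutagen, and M8 was 1 clone taken by limiting dilution. The study screened its mutants for activation of a MAIT reporter line, and among those with more activation chose M8 for its higher MR1 at the cell surface. What distinguishes M8 therefore cannot be told apart from what distinguishes 1 clone from another. Each line gave 3 samples, which the study describes as biological replicates in its comparison of these lines. The labels do not say whether they came from separate cultures, and p-values measure no more than the spread between these samples. The level of Mr1 messenger RNA was 1046 to 1139 FPKM in the parental samples and 1034 to 1095 FPKM in M8, with a log2 fold change of -0.03 ± 0.047 (SE, adjusted p by limma = 0.615). Messenger RNA is a different measure from MR1 protein at the cell surface, which the study reports as higher in M8.

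Lipocalins are small secreted proteins that fold into a barrel and carry a lipid or another greasy molecule in its centre. Lcn2 binds bacterial iron-carrying siderophores and is a classical acute phase and inflammation gene of epithelia, and the membrane protein Slc22a17 takes it up. Apod, apolipoprotein D, carries arachidonic acid and other lipids and is known to rise in growth arrest and oxidative stress. Ptgds is both an enzyme that makes prostaglandin D2 and a carrier in body fluids. The FABP and CRABP proteins are cytosolic relatives with a smaller barrel, which take fatty acids or retinoic acid from the membrane to enzymes and to nuclear receptors.

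Lcn2 and Apod were the genes of the set that differed most between the lines, in opposite directions, and Ptgds overlapped between them. The promoters of these 3 lipocalins are therefore shown, from 250 bases before to 50 bases after the RefSeq start site, on the strand of each gene in GRCm38.p6. Lcn2 lies on chromosome 2 at chr2:32387690-32387989, Apod on chromosome 16 at chr16:31314759-31315058 and Ptgds on chromosome 2 at chr2:25469700-25469999, all on the minus strand. Capitals mark matches on either strand to 5 motifs, namely AGGTCA, the core site of nuclear receptors, TTGCNNAA for C/EBP factors, TTCNNNGAA for STAT factors, the kappaB consensus, and last a TATA box spelled TATAAA.
Lcn2: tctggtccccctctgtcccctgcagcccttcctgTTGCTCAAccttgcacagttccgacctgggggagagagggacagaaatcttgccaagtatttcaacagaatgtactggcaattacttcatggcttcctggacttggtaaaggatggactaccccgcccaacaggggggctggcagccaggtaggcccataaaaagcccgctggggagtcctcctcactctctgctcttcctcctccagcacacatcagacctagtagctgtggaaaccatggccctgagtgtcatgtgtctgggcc
Apod: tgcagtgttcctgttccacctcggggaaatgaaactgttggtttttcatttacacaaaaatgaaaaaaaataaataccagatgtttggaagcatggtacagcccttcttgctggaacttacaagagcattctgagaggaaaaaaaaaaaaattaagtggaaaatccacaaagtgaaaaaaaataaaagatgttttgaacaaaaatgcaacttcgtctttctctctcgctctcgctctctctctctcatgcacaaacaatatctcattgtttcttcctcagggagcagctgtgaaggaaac
Ptgds: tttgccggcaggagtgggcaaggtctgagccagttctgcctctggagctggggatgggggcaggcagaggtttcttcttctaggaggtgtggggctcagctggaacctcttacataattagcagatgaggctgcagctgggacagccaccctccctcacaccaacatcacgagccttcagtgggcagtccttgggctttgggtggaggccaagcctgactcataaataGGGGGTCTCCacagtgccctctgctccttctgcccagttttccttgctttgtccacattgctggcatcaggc

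The Lcn2 promoter held 1 C/EBP match, beginning at -216 from the start site, and none of the 4 other motifs. The Ptgds promoter held 1 kappaB match at -22, and the Apod promoter held no match to any of the 5. No motif overlapped another. RefSeq sequence was at hand for 6 of the 9 genes, and Slc22a17, Fabp3 and Crabp1 also had no match. Over all 32851 mouse promoters of this length, 10.8% held the C/EBP motif, 8.46% the kappaB motif, 8.3% the STAT motif, 16.3% the nuclear receptor core and 13.6% the TATA box. A match states only that these letters occur in the window. The Apod promoter was also the poorest in G and C of the 6, with 37.3%, against 56.3% for Lcn2 and 57.7% for Ptgds.

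The libraries differed in 2 ways that touch these genes. The relative depth, read from the value of 1 read in weakly expressed genes and set to 1 in parental replicate 1, was 0.948 to 1.072 in the other parental libraries and 0.772 to 0.875 in M8. In M8 replicate 1, all 18 genes of a list of hepatocyte products had a value above 0, summing to 19.8 FPKM, against 1 to 6 genes above 0 and 0.0241 to 0.679 FPKM in the 5 other libraries. Albumin (Alb) was at 4.31 FPKM in this library and at most 0.0863 FPKM in any other. This list was drawn up with the values in view. The part of these transcripts in the results below was not tested, and the main values are also given without M8 replicate 1.

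The markers of the labelled tissue were mostly at or near 0. Of 12 colon epithelium markers, 6 were at 0 in every sample (Epcam, Cdh1, Krt19, Cdx2, Lgr5 and Slc26a3), and only Krt18 and Krt20 had a mean of at least 1 FPKM. Krt20, a keratin of differentiated epithelium, was at 15.1 to 19.8 FPKM in the parental samples and 10.8 to 12.7 FPKM in M8 and was called lower (log2 fold change -0.50, limma adjusted p = 0.00438). The 10 mesenchymal markers summed to 3050 to 3500 FPKM in the parental samples and 3150 to 3250 FPKM in M8, most of it vimentin. Of the 8 markers tested, 1 was called higher (Pdgfrb) and 3 lower, where 21.2% and 16.5% of all genes were called higher and lower. The markers called lower were fibronectin (Fn1), at 597.8 to 641.9 FPKM and 468.4 to 498.5 FPKM, Pdgfra, at 3.14 to 3.63 FPKM and 2.09 to 2.63 FPKM, and decorin (Dcn), at 16.6 to 20.8 FPKM and 11.9 to 15.7 FPKM. Pdgfrb rose, at 20.6 to 22.2 FPKM in the parental samples and 24.2 to 26.4 FPKM in M8, and vimentin, Col1a1, Col1a2 and Col3a1 were not called. The 3 that fell went the same way as Lcn2 and Crabp2, and their part in those differences was not tested. Markers of other cells known to express Lcn2, Apod or Fabp4 were summed as well. Of 13 neutrophil and macrophage markers, 6 were at 0 throughout, among them the neutrophil granule genes Ltf, Camp and Ngp, and the list summed to 4.4 to 6.16 FPKM in the parental libraries and 1.45 to 3.04 FPKM in M8. Most of this sum was the lysosomal gene Cd68, at 3.77 to 4.9 FPKM and 1.39 to 2.46 FPKM, which was called lower in M8 (log2 fold change -0.96, limma adjusted p = 0.00203), and its part in the fall of Lcn2 was not tested. Of 8 adipocyte markers, 4 were at 0 (Adipoq, Lep, Retn and Cfd) and the list summed to 0.415 to 0.64 FPKM against 0.255 to 0.312 FPKM. The 8 endothelial markers summed to 0.465 to 0.711 FPKM and 0.499 to 0.87 FPKM. In such bulk samples, fewer cells of a type and less RNA per cell cannot be told apart.

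Lcn2 was lower in M8 than in parental cells. Its level was 57.5, 39.5 and 41.6 FPKM in parental replicates 1 to 3 and 16.8, 11.5 and 12.9 FPKM in M8 replicates 1 to 3. Every M8 sample lay below every parental sample, and replicate 1 was the highest of its line in both. The means were 46.2 ± 9.83 FPKM (SD, n = 3) and 13.8 ± 2.73 FPKM (SD, n = 3), a level 3.36 times as high in parental cells. On the log2(FPKM + 1) scale the fold change was -1.67 (standard error 0.15), the second lowest of the 8547 genes with a mean of at least 5 FPKM. The FPKM of Lcn2 were whole multiples of the value of 1 read to within 0.02 reads, once a small offset between libraries, read from Ptgds, was allowed for, which gives 943, 615 and 731 reads in the parental samples and 241, 146 and 179 reads in M8. Counting error alone would spread such numbers by 3.66% and 7.4%, and the observed coefficients of variation were 21.3% and 19.8%. Without M8 replicate 1 the log2 fold change was -1.82, and without parental replicate 1 it was -1.51. The gene, ENSMUSG00000026822, spans chr2:32384633-32388252 on the minus strand of GRCm38, and its main transcript has 6 exons.

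Apod changed in the other direction. It stood at 40.3, 34.2 and 37.8 FPKM in the parental samples and at 76.0, 85.3 and 83.9 FPKM in M8. The groups did not overlap, and the gap between the highest parental and the lowest M8 sample was wider than the range of either line. The means of 37.4 ± 3.04 FPKM and 81.7 ± 4.98 FPKM (SD, n = 3 each) gave an M8 level 2.19 times that of parental cells and a log2 fold change of 1.11 (standard error 0.065). This was the sixth highest among the same 8547 genes. The coefficients of variation were 8.12% in parental cells and 6.1% in M8, below those of Lcn2. Without M8 replicate 1 the log2 fold change was 1.16. No whole-read step was found for Apod up to 1500 reads, so its counting error is not given. Apod, ENSMUSG00000022548, lies at chr16:31296192-31314808 on the minus strand, with 5 exons in its main transcript.

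**Figure D1:**
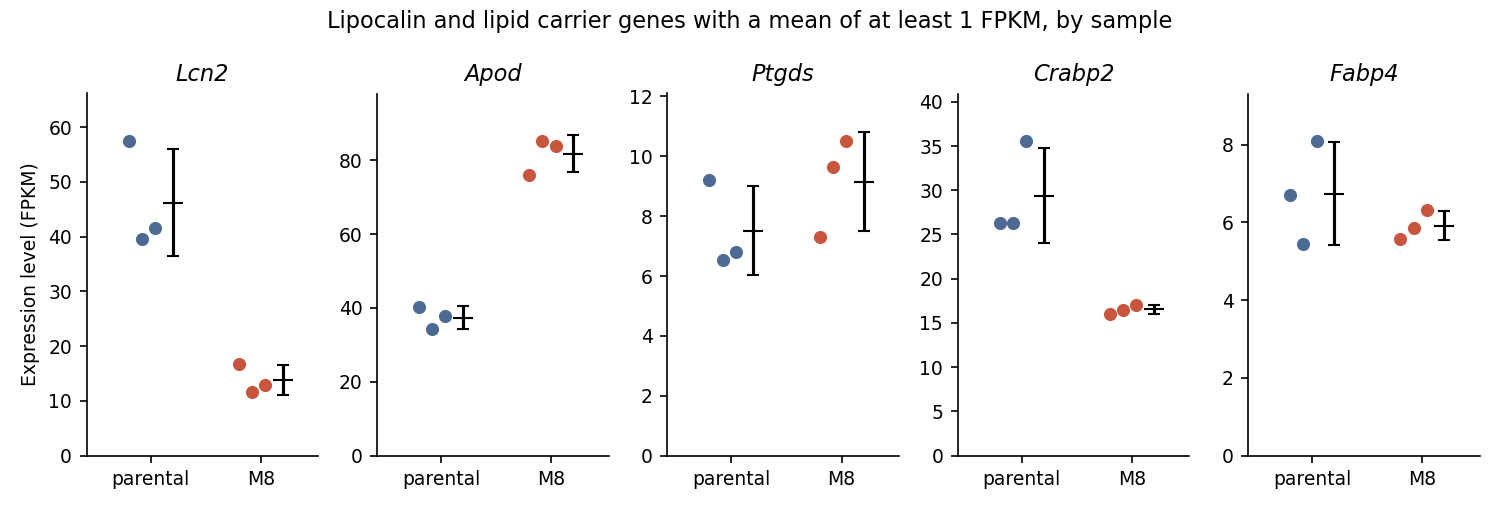
Expression level in FPKM of the 5 genes with a mean of at least 1 FPKM, 1 panel per gene with its own axis from 0, in 3 parental (blue) and 3 M8 (red) samples. Points are samples in replicate order from left to right, and the bar beside them is the mean ± SD. Lcn2 and Crabp2 were lower in every M8 sample, Apod was higher in every M8 sample, and Ptgds and Fabp4 overlapped.

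The order of the secreted lipocalins, compared per length in FPKM, was reversed between the lines. Lcn2 stood above Apod in each parental sample, at 1.43, 1.16 and 1.1 times its level in replicates 1 to 3. In M8, Apod stood at 4.53, 7.39 and 6.49 times the level of Lcn2. Over the means, Lcn2 was 1.24 times as high as Apod in parental cells and Apod 5.94 times as high as Lcn2 in M8. In parental cells the lead of Lcn2 was small beside its spread, with replicates 2 and 3 close to equal levels, whereas in M8 no sample of one gene approached the other.

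**Figure D2:**
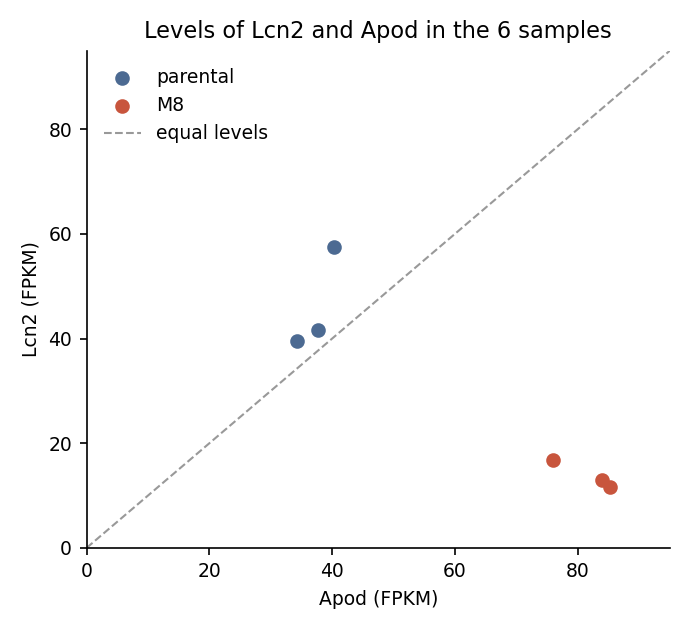
Level of Lcn2 against that of Apod in each of the 6 samples, both in FPKM on linear axes of the same range, with parental samples in blue, M8 samples in red and a dashed line at equal levels. The parental samples sit just above the line, with ratios of Lcn2 to Apod from 1.1 to 1.43, and the M8 samples sit far below it, with ratios of Apod to Lcn2 from 4.53 to 7.39.

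Ptgds was the lowest of the 3 secreted lipocalins chosen. Its values were 9.22, 6.52 and 6.82 FPKM in the parental line and 7.30, 9.64 and 10.5 FPKM in M8 cells. The lines overlapped through parental replicate 1, which was high, and M8 replicate 1, which was low. The means were 7.52 ± 1.48 FPKM and 9.15 ± 1.66 FPKM (SD, n = 3 each), with a log2 fold change of 0.25 (standard error 0.14), and the gene was not called. Without parental replicate 1 the log2 fold change was 0.39 and the gene was called higher, and the same held at 0.39 without M8 replicate 1. It was 0.16 without M8 replicate 3 and 0.17 without parental replicate 2, and the gene was not called there. The coefficients of variation were 19.6% in parental cells and 18.2% in M8. The number of reads behind the values is not given, because Ptgds itself set the offset between libraries used to recover reads for the other genes. Ptgds lies at chr2:25466709-25470046, on the same chromosome and strand as Lcn2.

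Slc22a17, the receptor that takes up Lcn2, was at or near 0 throughout. It was listed at 0 in all 3 parental samples and in M8 replicates 1 and 2, and at 0.0449 FPKM in M8 replicate 3. With a single value above 0, the number of reads behind it cannot be recovered. A difference between the lines was not detectable at this depth. The gene lies at chr14:54906304-54913132 on the minus strand and was not tested.

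Crabp2, which delivers retinoic acid to its nuclear receptor, was well above 0 in every sample. Its levels were 26.3, 26.3 and 35.6 FPKM in the parental line and 16.1, 16.5 and 17.0 FPKM in M8 cells. All M8 samples lay below all parental samples, and the M8 samples were close together while parental replicate 3 stood above its group. The means were 29.4 ± 5.39 FPKM and 16.5 ± 0.485 FPKM (SD, n = 3 each), 1.78 times as high in parental cells, with a log2 fold change of -0.78 (standard error 0.10), or -0.76 without M8 replicate 1. Crabp2 ranked 18th from the lowest among these genes. It was read 462, 438 and 671 times in the parental samples and 247, 224 and 253 times in M8. Counting error of 4.43% and 6.44% compares with observed coefficients of variation of 18.3% and 2.93%. The gene lies at chr3:87948666-87953376 on the plus strand. Its paralog Crabp1, at chr9:54764748-54773110, was listed at 0 in all 6 samples.

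The fatty acid-binding proteins were low or listed at 0. Fabp4, the carrier of adipocytes and macrophages, was at 6.69, 5.43 and 8.10 FPKM in the parental line and at 5.58, 5.86 and 6.31 FPKM in M8 cells. The M8 values fell within the parental range. The means were 6.74 ± 1.33 FPKM and 5.92 ± 0.37 FPKM (SD, n = 3 each), the log2 fold change was -0.15 (standard error 0.11), and the gene was not called, although it was called lower without parental replicate 2, at -0.28. It was -0.025 without parental replicate 3 and -0.11 without M8 replicate 1. Its 50 to 96 reads per sample give a counting error of 11.7% in parental cells and 13.6% in M8. Fabp3, the heart-type carrier, was at 0.0906, 0.191 and 0.0845 FPKM in the parental line and at 0.104, 0 and 0.107 FPKM in M8 cells. The smallest whole numbers of reads that fit these values were 0 to 2 in a sample, so a difference was not detectable at this depth.

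Fabp5, the epidermal-type carrier, was listed at 0 in all 6 samples. An exact 0 in FPKM can also be a failed estimate, so the sequence of each gene was compared with all other annotated transcripts. Of the 938 windows of 50 bases in the main Fabp5 transcript, 198 (21.1%) also occur in 5 pseudogenes, and the other windows are its own. For Fabp3, 289 of 774 windows (37.3%) occur in another gene, partly because Zcchc17 and Gm10570 overlap it on the opposite strand. The other 7 genes shared no window with another gene, Crabp1 among them. Ribosomal proteins are used by every cell in their main forms. Of 81 genes for them, paralogs included, 1 was at 0 throughout, the paralog Rpl10l. The 2 paralogs Rpl3l and Rps4l were at 0 in at least 1 sample. For Fabp5 and Crabp1 it can be stated only that the deposited values are 0.

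In the fit across all genes, 1 of the 5 tested carriers was called higher in M8 (Apod) and 2 were called lower (Lcn2 and Crabp2), with limma at an adjusted p below 0.1. Over all genes tested, 21.2% were called higher and 16.5% lower, which is 2250 and 1745 genes, or 1609 and 1157 genes without M8 replicate 1. All 3 M8 values lay above the 3 parental values in 1 of the 5 genes and below them in 2, against 24.8% and 20.4% of all genes. The same 3 genes changed at least 1.5-fold on the log2(FPKM + 1) scale, which held for 0.396% of all genes among those called higher and 0.698% among those called lower. Because this comparison chose the set, nothing is read from these counts. The median log2 fold change of the 5 was -0.15, against 0.01 over all genes. Lcn2, Apod and Crabp2 kept their direction in all 15 alternative analyses, with log2 fold changes from -1.82 to -1.51, from 1.04 to 1.16 and from -0.85 to -0.64. Scaling to TPM turned the balance of all calls, with 42.3% of the called genes higher in M8, and upper-quartile scaling gave 46.2%, against 56.3% in FPKM. These scalings left Lcn2, Apod and Crabp2 on the same side.

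Most relatives of these genes were listed at or near 0. The counts in this and the following lists stand beside the 21.2% of all genes called higher and the 16.5% called lower. Of 19 other lipocalins measured, 11 were at 0 in every sample and only C8g, a complement component, had a mean of at least 1 FPKM, at 1.52 ± 0.53 FPKM in the parental line and 1.46 ± 0.301 FPKM in M8 (log2 fold change -0.02, limma adjusted p = 0.934). The major urinary protein Mup20 was at 2.06 FPKM in M8 replicate 1 and at 0 in the other 5 samples. The plasma lipocalins Orm1 and Rbp4 were also above 0 only in this library, at 0.241 and 0.125 FPKM. Among 12 other intracellular lipid-binding proteins, 4 were tested, of which 1 was called higher. It was Dbi, the acyl-CoA-binding protein and by far the most abundant of them, which rose from 123 ± 4.51 FPKM to 145 ± 6.3 FPKM (log2 fold change 0.23 ± 0.046 SE, adjusted p by limma = 0.00602). The intestinal-type retinol carrier Rbp2 stood at 10.6 ± 1.71 FPKM in the parental line and 10.6 ± 1.085 FPKM in M8 and was not called (limma adjusted p = 0.929). Liver-type Fabp1 was at 2.19 FPKM in M8 replicate 1 and at 0 in the other 5 samples.

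Of 8 genes listed as receptors and partners of lipocalins, 4 were tested, with 1 higher and 1 lower, or 2 lower without parental replicate 1. Lrp1, a large endocytic receptor, rose from 66.4 ± 7.13 FPKM to 81.7 ± 1.46 FPKM (log2 fold change 0.30 ± 0.067 SE, adjusted p by limma = 0.0104). Lmbr1l, known as a lipocalin receptor, fell from 13.0 ± 0.482 FPKM to 9.82 ± 0.541 FPKM (log2 fold change -0.37 ± 0.058 SE, adjusted p by limma = 0.00223). Basigin (Bsg), reported as an Apod receptor, was at 489 ± 88 FPKM in the parental line and at 467 ± 36.6 FPKM in M8 cells and was not called (log2 fold change -0.05, limma adjusted p = 0.767). Parental replicate 1 was its lowest sample, at 387 FPKM, and without it Bsg was called lower, at -0.21. It was 0.02 to 0.03 without parental replicate 2 or 3. The other endocytic Lcn2 receptor, megalin (Lrp2), had at most 0.182 FPKM in any sample. The Lcn2 partner Mmp9 had at most 0.0611 FPKM.

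Of 22 other acute phase and inflammation genes, 9 were tested, 2 of them higher and 2 lower in M8, close to the shares of all genes, and their median log2 fold change was -0.15. Saa3, a serum amyloid gene, was at 5.19, 3.18 and 4.16 FPKM in the parental line and at 3.72, 1.56 and 1.14 FPKM in M8 cells, with a log2 fold change of -0.79 ± 0.26 (SE, adjusted p by limma = 0.0483) although the lines overlapped. Its call was lost in 4 alternatives, without parental replicate 1, without M8 replicate 2 or 3 and with no filter on low values. Ceruloplasmin (Cp) rose, with a log2 fold change of 0.32 ± 0.058 (SE, adjusted p by limma = 0.00438). Cebpd, a C/EBP factor of the acute phase response, rose by 0.21 on the log2 scale (limma adjusted p = 0.0385), a call lost without parental or M8 replicate 2. Nfkbiz, a coactivator of Lcn2 transcription in inflammation, fell from 8.26 ± 0.573 FPKM to 7.02 ± 0.101 FPKM (log2 fold change -0.21, limma adjusted p = 0.0367) and is named here after its values were seen. Without M8 replicate 2, 1 gene of the list was called higher, and neither Saa3 nor Nfkbiz was called.

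For the fatty acid side, 11 of 19 uptake and activation genes were tested, 3 higher and 3 lower. The acyl-CoA synthetase Acsl5 rose from 63.1 ± 2.1 FPKM to 79.0 ± 0.849 FPKM (log2 fold change 0.32, limma adjusted p = 0.000898). Its relative Acsl4, which prefers arachidonic acid, fell from 26.1 ± 0.373 FPKM to 22.4 ± 1.55 FPKM (log2 fold change -0.21, limma adjusted p = 0.0189). The acyl-CoA-binding protein Acbd5 fell by 0.30 on the log2 scale (limma adjusted p = 0.00821). Without M8 replicate 1, 1 gene of this list was called higher. The fatty acid transporter Cd36 was at 0 in every sample.

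FABP cargo can activate PPAR nuclear receptors. Of 26 PPAR factors and target genes, 18 were tested, 4 higher and 5 lower. Angptl4, a secreted inhibitor of lipoprotein lipase, rose from 2.52 ± 0.341 FPKM to 4.9 ± 0.705 FPKM (log2 fold change 0.74 ± 0.11 SE, adjusted p by limma = 0.00176). Txnip, a thioredoxin-binding arrestin that limits glucose uptake, fell from 353.6 ± 10.03 FPKM to 185.6 ± 16.5 FPKM (log2 fold change -0.93 ± 0.06 SE, adjusted p by limma = 6.1e-05). The lipase Lipe was at 1.94 ± 0.303 FPKM and 1.33 ± 0.316 FPKM (log2 fold change -0.34, limma adjusted p = 0.0775), and its call was lost in 5 of the alternatives, with -0.22 without M8 replicate 3. Pparg and Ppara themselves were below the level tested, with at most 0.0328 FPKM for Pparg and 0 for Ppara.

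Of 30 genes of retinoid metabolism and signaling, 19 were tested, 3 higher and 5 lower. Cyp26b1, which breaks down retinoic acid, fell from 4.26 ± 0.284 FPKM to 2.56 ± 0.193 FPKM (log2 fold change -0.56 ± 0.081 SE, adjusted p by limma = 0.00157). Tgm2, a transglutaminase known as a retinoic acid target, fell from 32.1 ± 1.8 FPKM to 24.1 ± 3.02 FPKM (log2 fold change -0.40, limma adjusted p = 0.00748). Aldh1a1, which makes retinoic acid, rose from 1.57 ± 0.242 FPKM to 2.69 ± 0.326 FPKM (log2 fold change 0.52 ± 0.11 SE, adjusted p by limma = 0.00761). Without M8 replicate 1, 3 genes of this list were called lower.

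Around Ptgds, 12 of 26 genes of prostaglandin synthesis and signaling were tested, 1 higher and 4 lower. The phospholipase Pla2g4a, which releases arachidonic acid, fell from 70.2 ± 2.26 FPKM to 55.0 ± 0.725 FPKM (log2 fold change -0.35, limma adjusted p = 0.000656). Ptges, the prostaglandin E synthase, fell from 50.9 ± 4.96 FPKM to 40.1 ± 1.56 FPKM (log2 fold change -0.33, limma adjusted p = 0.00643). Abcc4, a prostaglandin exporter, fell from 25.1 ± 1.73 FPKM to 18 ± 0.678 FPKM (log2 fold change -0.46, limma adjusted p = 0.00095). Without parental replicate 3, and likewise without M8 replicate 3, 2 genes of this list were called higher.

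Of 31 apolipoproteins and lipid transfer proteins other than Apod, 21 were tested, 2 higher and 6 lower. Mttp, which loads lipid onto lipoproteins, fell by 0.40 on the log2 scale (limma adjusted p = 0.00728), and the ganglioside activator Gm2a fell by 0.41 (limma adjusted p = 0.0151). The mitochondrial Apoo fell by 0.35 (limma adjusted p = 0.0398), a call that was lost without M8 replicate 1 and with no filter on low values. Parental replicate 1 was its highest sample, at 25.7 FPKM against 18.3 and 18.6 FPKM, and without it the log2 fold change was -0.20. Without any one of parental replicates 1 and 3 and M8 replicates 1 and 2, 1 gene of the list was called higher. Apoe, the main cholesterol-carrying apolipoprotein of many tissues, was at 3.29 ± 1.14 FPKM and 3.78 ± 2.1 FPKM, with M8 replicate 1 the highest sample at 6.15 FPKM (log2 fold change 0.10, limma adjusted p = 0.813).

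**Figure D3:**
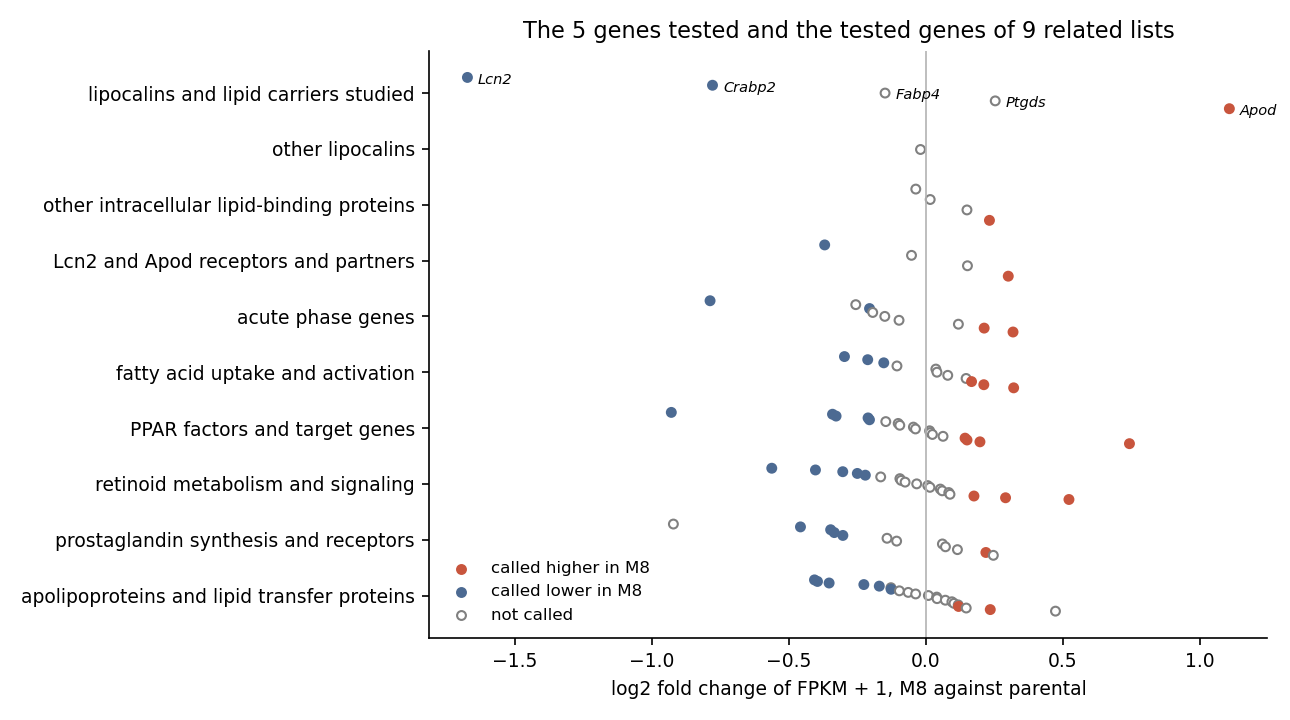
Log2 fold change of FPKM + 1 between M8 and parental cells, 1 point per gene with a mean of at least 1 FPKM, for the 5 tested lipocalin and carrier genes (top) and for 9 lists of related genes. Red and blue points were called higher and lower in M8 with limma at an adjusted p below 0.1, and open points were not called. Lcn2 at -1.67 and Apod at 1.11 lie outside the range of all the lists, whose called genes run from -0.93 (Txnip) to 0.74 (Angptl4).

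The neighbours of the 9 genes on the chromosomes were measured as well, taking the nearest tested protein-coding gene on either side, 17 genes in all, of which 1 was Fabp4, the neighbour of Fabp5. Of these, 4 were called higher and 1 lower in M8, where 21.2% and 16.5% of all genes were called higher and lower. Around Lcn2, 1110008P14Rik was not called (log2 fold change -0.11, limma adjusted p = 0.179), although it was called lower with quantile normalization, at -0.18, and stood at -0.05 without parental replicate 1, while Ptges2, 7.64 kb away, rose by 0.22 on the log2 scale (limma adjusted p = 0.0166), opposite to Lcn2. Around Apod, Ppp1r2 at a distance of 20.9 kb and Dlg1 at 349 kb had log2 fold changes of 0.02 and 0.01 (limma adjusted p = 0.848 and 0.942). Their sign changed with the scaling, to -0.02 and -0.03 in TPM. Next to Crabp2, Isg20l2 rose by 0.12 (limma adjusted p = 0.0923), a call lost in 11 of 15 alternatives, and Nes fell by 0.25 (limma adjusted p = 0.0425), a call lost in 5 alternatives, among them without M8 replicate 1. Next to Slc22a17, Pabpn1 and Ngdn rose by 0.20 and 0.25 (limma adjusted p = 0.0187 and 0.00293), and with quantile normalization Pabpn1 was at 0.11 and no longer called. Next to Ptgds, Abca2 was at -0.14 and not called (limma adjusted p = 0.106), but it was called lower in 5 of 15 alternatives, at -0.19 to -0.14, namely a mean of at least 5 FPKM, TPM, upper-quartile scaling, quantile normalization and without parental replicate 3. C8g, on the other side of Ptgds, is the lipocalin given above. None of the neighbours of Fabp3, Fabp4 and Crabp1 was called, with log2 fold changes of -0.0019 for Tinagl1 and 0.07 for Zcchc17 beside Fabp3, 0.10 for Mrps28 and 0.10 for Impa1 beside Fabp4, and 0.10 for Wdr61 and -0.07 for Ireb2 beside Crabp1 (limma adjusted p = 0.143 to 0.985). The sign of Tinagl1 changed without parental replicate 2 or 3 or M8 replicate 1, and Mrps28 was called higher without parental replicate 1, at 0.15. No tested neighbour had a change as large as that of Lcn2, Apod or Crabp2. Since the set was chosen with this comparison in view, nothing is read from this.

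The genes whose pattern over the 6 samples was most like that of Lcn2, by Pearson's r of log2(FPKM + 1) among 8547 genes with a mean of at least 5 FPKM, were Prrc2b (r = 0.9998), Mical2 (r = 0.999) and Car5b (r = 0.9969). They fell by much less than Lcn2, with log2 fold changes of -0.15, -0.27 and -0.25. Prrc2b, for example, stood at 66.7, 64.5 and 64.8 FPKM in the parental line and at 60.1, 58.1 and 58.7 FPKM in M8 cells. For Apod they were Ptpn11 (r = 0.9984), Phpt1 (r = 0.9982) and Phf11b (r = 0.9959), with log2 fold changes of 0.21, 0.52 and 0.46. Over 6 samples in 2 groups the points share the step between the lines, and the values are given as a description.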

How the data were processed

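RNA was sequenced from 3 parental CT26.mMR1 and 3 M8 samples. The authors made stranded mRNA libraries, aligned the single reads to the mm10 genome (TopHat) and deposited FPKM, calculated by Cufflinks, and the submitters' processing notes list TopHat2 2.1.1, Bowtie2 2.2.8, SAMtools 0.1.18 and Cuffdiff 2.2.1. The gene annotation is not given in the sources used here. FPKM are scaled for depth and transcript length and are not counts, so no count model was used, whereas the study compared read counts in iDEP.

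limma 3.58.1 in R 4.3.3 (lmFit, eBayes with a trend) was fitted to log2(FPKM + 1) for genes with a mean of at least 1 FPKM, without covariates, and p-values were adjusted by Benjamini-Hochberg over all genes tested with a threshold of 0.1. The pseudocount of 1 understates fold changes of low genes. The fit was tested on simulated data. An exact permutation test of 3 against 3 samples cannot go below p = 0.1 and was not used. Named were the 9 genes, the 3 genes of each list with the largest fold change among those called, the nearest tested genes on either side, and the 3 genes most like Lcn2 and Apod. Genes outside this rule were named after their values were seen. The 9 genes and the lists were chosen with earlier results of these data known. Alternatives were pseudocounts of 0.1 and 0.5, no filter, a mean of at least 5 FPKM, TPM, upper-quartile and quantile scaling, eBayes without a trend, a replicate block, and leaving out each library in turn. Reads behind a value were recovered where all 6 samples were above 0 and fell on whole multiples of 1 read within 0.02. A small offset between libraries, read from Ptgds, was allowed, so no reads are given for Ptgds. Counting errors come from these reads only. For Fabp3, with M8 replicate 2 at 0, no offset was used and the smallest whole numbers that fit are given. Positions are from GENCODE M21 (GRCm38). Python 3.11.15, pandas 2.3.3 and matplotlib 3.10.9 were used.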

Additional observations from a re-analysis of the deposited data

How the results depend on the processing

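Over 15 alternatives, Lcn2, Apod and Crabp2 kept their direction and their call. The genes called lower numbered 1745, and 1157 to 1672 with 1 library left out, lowest without M8 replicate 1. With 1 library left out, the carriers called higher were 1 to 2, list genes called lower were 1 to 2 (receptors), 0 to 3 (acute phase) and 3 to 6 (retinoid), and those called higher were 1 to 3 (acute phase), 1 to 4 (fatty acid uptake), 1 to 2 (prostaglandin) and 1 to 2 (apolipoproteins). Without the filter, 1 intracellular carrier was called lower and 2 prostaglandin genes higher. TPM gave 4 acute phase genes lower and 1 apolipoprotein higher. Quantile normalization gave 1 fatty acid uptake gene, 2 PPAR genes, 2 prostaglandin genes and 1 apolipoprotein higher. Upper-quartile scaling and eBayes without a trend each gave 1 apolipoprotein higher, and a mean of at least 5 FPKM gave 3 retinoid genes lower, with fewer genes tested. Otherwise the cause was not tested.

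Genes near 0 changed sign. Ppp1r2 was at -0.0195 in TPM, -0.00995 with upper-quartile scaling and -0.0139 with quantile normalization, and -0.0231 to 0.0672 with 1 library left out. Dlg1 was at -0.031, -0.0212 and -0.0337 in the same order and at -0.0178 to 0.0367 with 1 library left out. C8g was at 0.0635 with quantile normalization and -0.187 to 0.123 with 1 library left out, and Tinagl1 at -0.0749 to 0.0364. Of 548 values of 37 genes, the top genes of each list and the chromosomal neighbours, 494 kept direction and call, 30 lost a call and 7 gained one.

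Samples of the same replicate number did not deviate together (r = 0.1, -0.106 and -0.0326), so the numbers were not taken as pairs. With the replicate block, 2171 genes were called higher and 1688 lower, and fold changes cannot change in this balanced design. Fabp3 and Slc22a17 are limited by depth.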
